A study of Homo sapiens with 11 samples.

Results

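The nuclear genes of mitochondrial complex I were followed in Caki-1-SR cells, which are sunitinib-resistant clear cell renal cell carcinoma (ccRCC) cells of the Caki-1 line. The members were all rows of the count tables whose symbol begins with NDUFA, NDUFB, NDUFC, NDUFS or NDUFV, with pseudogenes left out. The rule found 50 genes among 26485 symbols. Of these, 46 encode proteins, 3 are antisense RNAs (NDUFA6-AS1, NDUFB2-AS1 and NDUFV2-AS1) and 1 is the readthrough gene NDUFC2-KCTD14. The assembly factor NDUFAF8 appears in the tables under its older symbol, C17orf89, and therefore lies outside the rule. The rule used no measured value.

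The study tested an optimized drug combination, ODC, in which 4 agents were given at once: metformin at 1 µM, the EGFR inhibitor erlotinib at 1 µM, the ruthenium-based Rapta-C at 2 µM and parthenolide, a plant lactone, at 5 µM. RNA was sequenced from 3 CTRL and 3 ODC libraries of a 24 h treatment and from 2 CTRL and 3 ODC libraries of a 2 h treatment. All 11 libraries came from 1 clone that was grown in medium with 1 µM sunitinib, so the controls were also exposed to that kinase inhibitor. The CTRL cells are called untreated in one place of the study's text and sham-treated in another. Because the drugs were combined, the part of metformin cannot be told apart from that of the other drugs.

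Complex I, the NADH:ubiquinone oxidoreductase, is the entry point of the respiratory chain. It takes electrons from NADH at the tip of an arm that stands in the mitochondrial matrix, passes them along iron-sulfur clusters to ubiquinone, and pumps protons through a second arm that lies in the inner membrane. The core of the matrix arm is encoded in the nucleus and the core of the membrane arm in the mitochondrial genome. Accessory subunits surround both arms, and assembly factors help to build the complex without being part of it. Metformin is known as an inhibitor of complex I, and ccRCC is known for low respiration. The transcripts of the mitochondrially encoded ND subunits, and the protein and activity of the complex, were not analysed here.

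The 24 h libraries held 17785229 to 20882856 counts each and the 2 h libraries 25782895 to 31118349, of which the members took between 0.246% and 0.309%. Of the renal epithelial markers, PAX8, KRT8 and KRT18 were present throughout (PAX8 at 437 to 891 CPM, the count scaled to library size). CDH6 ran from 6.15 to 424 CPM and LHX1 from 7.04 to 51.8 CPM, EPCAM had 5 to 100 counts and PAX2 at most 4 counts in any library. Of the immune and endothelial markers, PTPRC, CD3E, PECAM1, VWF and CDH5 had at most 13 counts, while the immune marker CD68 had 106 to 476 counts. At 24 h the summed level of 3 fibroblast markers was 6.58 to 21.7 CPM in CTRL and 20.1 to 49.2 CPM in ODC, and that of 3 immune markers, CD68 for the most part, 5.62 to 5.95 and 6.92 to 7.79 CPM. PDGFRB made up most of the fibroblast sum at 24 h. At 2 h the fibroblast sum was 3.10 to 8.86 CPM in CTRL and 3.56 to 5.49 CPM in ODC, and the immune sum 12.7 to 14.3 and 11.9 to 15.2 CPM. At 2 h, CTRL replicate 1 stood apart, with 73 counts of DCN and 65 of LUM, where the other 10 libraries had at most 3 and 4, with 13 counts of VWF, where they had at most 2, and with 100 counts of EPCAM, where the other 2 h libraries had 19 to 27. The part of these markers in the results was not tested. Of the 2 h results, the members' split by direction and the log2 fold changes of some members are also given without that library. The overlap of groups, the values by GC content and the other gene lists are not. In bulk RNA, fewer cells of a type and less RNA per cell cannot be told apart. Replicate libraries differed by more than sampling noise, with a chi-square of 18.7 to 58.0 per gene. The labels do not say that libraries came from separate cultures, so p-values measure only the spread between these libraries. The time points are held in separate count tables whose libraries carry different months in their names, so time and table cannot be told apart. ODC was compared with CTRL within a table, and levels were not compared between tables.

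At baseline, the subunit genes were expressed at levels that differed widely. Levels between genes were compared as CPM per kilobase of the canonical transcript, over the 35 protein-coding members whose annotated transcripts have similar lengths. In the CTRL libraries of 24 h, NDUFA1, a small membrane-anchored accessory subunit, had the highest level at 221 ± 18.7 CPM per kilobase (SD, n = 3). It was followed by NDUFB9 at 206 ± 34.0 and NDUFS5 at 204 ± 19.7 CPM per kilobase, and the ranges of these 3 genes overlapped. The lowest level, 1.75 ± 0.38 CPM per kilobase, belonged to NDUFA4L2, the paralogue of NDUFA4 that is known as a HIF target gene and is often abundant in ccRCC tissue. The assembly factors NDUFAF1, NDUFAF4, NDUFAF6 and NDUFAF7 lay at the low end, between 8.94 and 11.9 CPM per kilobase. Other assembly factors lay higher, such as NDUFAF3 at 29.5 ± 1.25 CPM per kilobase, and a subunit gene of the matrix arm lay below the factors named.

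The core subunits also spanned a wide range. NDUFV2, an iron-sulfur protein of the NADH-oxidizing tip, stood at 173 ± 20.6 CPM per kilobase. NDUFV1, which binds NADH and the flavin that first takes its electrons, stood at 89 ± 3.58. NDUFS8 was at 78.4 ± 7.37. NDUFS7, the subunit that holds the last iron-sulfur cluster before ubiquinone, was the lowest of these at 28.2 ± 1.15 CPM per kilobase, and its range did not reach that of NDUFS8, NDUFV1 or NDUFV2. In the CTRL libraries of 2 h, NDUFA13 led with 239 ± 30.3 CPM per kilobase (SD, n = 2) and NDUFA4L2 was again last with 1.49 ± 0.01.

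**Figure D1:**
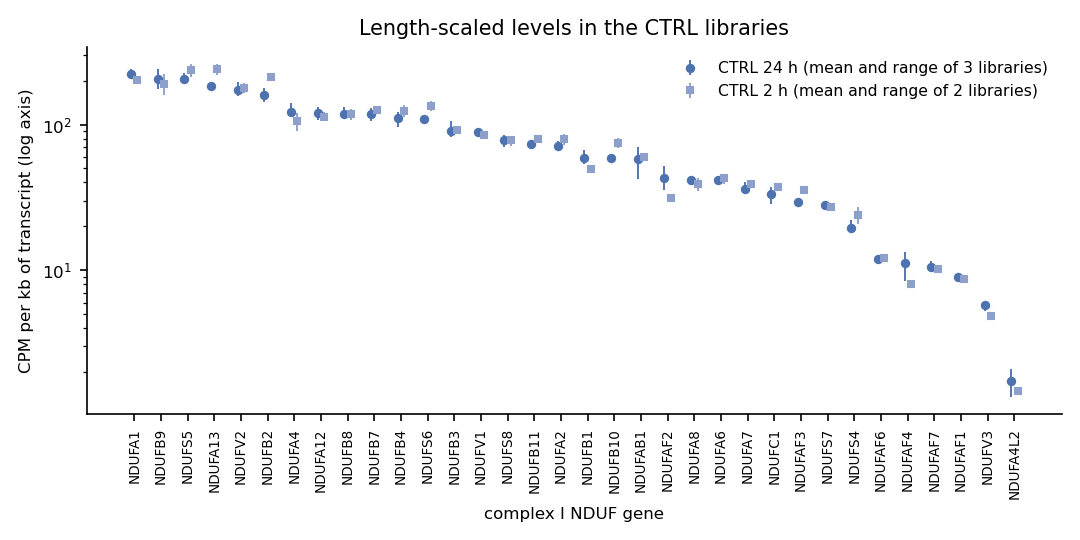
Length-scaled level (CPM per kilobase of transcript, log axis) of 34 protein-coding members of clear length in the CTRL libraries, as means with the range of 3 libraries at 24 h (circles) and of 2 libraries at 2 h (squares). Genes are ordered by the 24 h mean, from NDUFA1 at 221 to NDUFA4L2 at 1.75 CPM per kilobase.

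The first comparison asked whether ODC changed the RNA of complex I genes after 24 h. No member passed the test, and the group as a whole stayed close to CTRL. Of the 48 members tested, 22 were higher and 26 lower in the ODC libraries, with a median log2 fold change of -0.013. Over all genes tested, 49.9% were lower and the median was 0.00089. The range over the members ran from -0.39 for NDUFB6, a membrane arm subunit, to 0.25 for NDUFAF3, an assembly factor of the arm that binds ubiquinone.

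By the quasi-likelihood F-test of edgeR, Benjamini-Hochberg adjusted, 0 of the 48 members had an adjusted p under 0.05, against 0.189% of all 12689 genes tested. The smallest adjusted p among the members was 0.241 (edgeR). At an unadjusted p under 0.05, 1 member was higher and 2 were lower, where 7.2% of all genes were higher and 5.04% lower (12.2% in all). The number was 5 without ODC replicate 3, where the number over all genes went from 1553 to 2006. It was 1 without CTRL replicate 1, CTRL replicate 3 or ODC replicate 2, where all genes gave 897, 1335 and 1301. The likelihood ratio test of edgeR and DESeq2 called 401 and 386 genes over the whole table and 0 members each. At an unadjusted p under 0.05 both gave 2 members, where all genes gave 1527 and 1506. Pairing the libraries of adjacent number gave 1 member with an adjusted p under 0.05, NDUFB6, where 5.41% of all genes were called, and 5 members at an unadjusted p under 0.05 (23.6% of all genes).

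The intervals bound how large a change could have gone unseen. The 95% interval of the fold change lay within 2-fold in either direction for 47 of the 48 members (83% of all genes) and within 1.5-fold for 40 (57.6% of all genes). The exception at 2-fold was NDUFB2-AS1, which had 26 to 56 counts per library. The summed level of the members was 3072, 2687 and 2697 CPM in CTRL replicates 1, 2 and 3, and 3094, 2797 and 2445 CPM in ODC replicates 1, 2 and 3. These groups overlapped, with means of 2819 ± 219 and 2779 ± 325 CPM (SD, n = 3 each).

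Single libraries of a group lay further apart than the group means did for most members. For each member, the range between replicates on the log2 scale was taken as the larger of the ranges in CTRL and in ODC. Its median over the members was 0.43, and their median absolute log2 fold change was 0.077. A range of single libraries and a difference of group means are unlike measures, so these values are descriptions. Many members moved together from library to library. Of the 48, 28 had their lowest level of all 6 libraries in ODC replicate 3, while 16 were highest in ODC replicate 1 and 14 in CTRL replicate 1. The split by direction depended on these libraries. Without ODC replicate 3, 15 members were lower and 33 higher (median 0.073), without CTRL replicate 1 the numbers were 14 and 34 (median 0.024), and without ODC replicate 1 they were 34 and 14 (median -0.080). Scaling by library totals alone gave 31 lower and 17 higher.

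**Figure D2:**
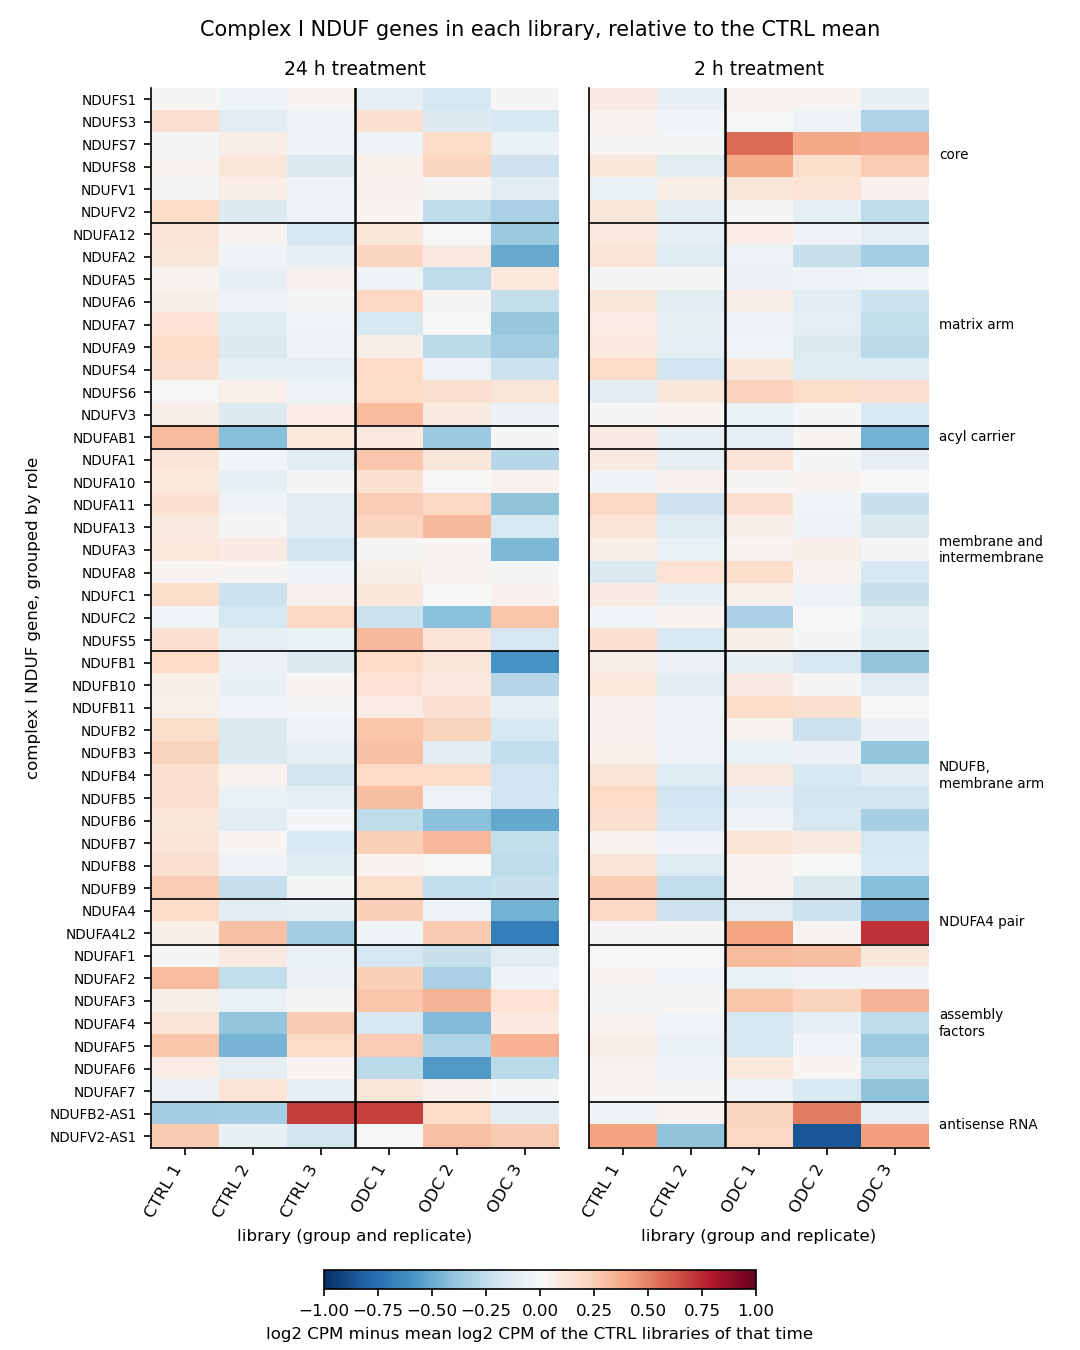
Level of 47 tested members (rows, grouped by role) in each library (columns), as log2 CPM minus the mean log2 CPM of the CTRL libraries of that time, on a color scale from -1 (blue) to 1 (red). ODC replicate 3 at 24 h is blue for most rows, with 39 of 48 members below the CTRL mean, while ODC replicate 1 has 37 above it.

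Among the 7 core subunits, 5 were lower and 2 higher at 24 h, none passed the test, and all 7 intervals lay within 1.5-fold. NDUFS1, the large iron-sulfur subunit at the start of the chain, measured 89.6, 86.2 and 90.3 CPM in CTRL and 83.4, 78.6 and 87.5 CPM in ODC. The ODC libraries were lower on average, but their highest value exceeded the lowest CTRL value (log2 fold change -0.093, standard error 0.088). NDUFV2 had 168, 134 and 143 CPM in CTRL against 149.6, 124 and 118 CPM in ODC. The groups overlapped, while ODC was lower than CTRL within each pair of adjacent library numbers. Its log2 fold change of -0.19 (standard error 0.13) was the lowest of the core. The unadjusted p was 0.188 and, with the pairs as a block, 0.0264 (adjusted p = 0.15, edgeR). These pairs were read from the counts and are not given in the labels. With them 23.6% of all genes had an unadjusted p under 0.05.

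Other core genes were nearer to 0. The log2 fold change was -0.044 for NDUFS3, which with NDUFS7 and NDUFS8 lies in the part of the arm next to ubiquinone. It was 0.026 for NDUFS7, 0.024 for NDUFS8 and -0.016 for NDUFV1. The standard errors of these 4 genes lay between 0.090 and 0.13. The signs of NDUFS7 and NDUFS8 turned negative when the libraries were scaled by their totals alone (-0.0088 and -0.012).

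Of the 30 accessory subunits, 15 were higher and 15 lower at 24 h. The matrix arm had 3 higher and 6 lower, with NDUFS6, a zinc-binding subunit, highest at 0.15. The NDUFB subunits of the membrane arm had 5 higher and 6 lower. The remaining membrane and intermembrane subunits had 7 higher and 2 lower, led by NDUFA13 (0.14, standard error 0.13), a subunit also known as the cell death protein GRIM-19. NDUFAB1, the mitochondrial acyl carrier protein, had a log2 fold change of -0.12 (standard error 0.20), with 27.9 to 46.8 CPM in CTRL and 29.0 to 40.2 CPM in ODC.

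NDUFB6 had the lowest log2 fold change and the smallest p of all members. It lies on chromosome 9 of hg38 from 32553001 to 32573184 on the minus strand (GENCODE release 44) and encodes an accessory subunit of the membrane arm. The CTRL libraries held 42.5, 36.2 and 38.6 CPM and the ODC libraries 32.8, 29.1 and 27.4 CPM. Every ODC library was below every CTRL library. The means were 39.1 ± 3.19 and 29.8 ± 2.76 CPM (SD, n = 3 each), a fold of 0.761 with a 95% interval of 0.630 to 0.920. The log2 fold change was -0.39 (standard error 0.12, unadjusted p = 0.0105, adjusted p = 0.241, edgeR quasi-likelihood with Benjamini-Hochberg). With the libraries paired by adjacent number, its adjusted p from the same test was 0.0453. This pairing was read from the counts and is not given in the labels, and under it 5.41% of all genes were called. Its unadjusted p was at most 0.0407 in each of 19 alternatives, where the log2 fold change ran from -0.47 to -0.34.

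NDUFA4 and NDUFA4L2 were considered apart, since NDUFA4 was first assigned to complex I and is now counted as a subunit of complex IV. NDUFA4 measured 284, 229 and 236 CPM in CTRL and 293, 239.5 and 179 CPM in ODC. The ODC libraries held both the highest and the lowest of the 6 values, and the log2 fold change was -0.074 (standard error 0.18). NDUFA4L2 remained at 1.01 to 1.98 CPM in all 6 libraries, which is 21 to 38 counts (log2 fold change -0.13, standard error 0.32).

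The assembly factors held the other members with an unadjusted p under 0.05. Of the 7 NDUFAF genes, 3 were higher and 4 lower. NDUFAF6, a factor of early assembly, lies on chromosome 8 from 94895533 to 95116455. It had 22.5, 19.9 and 21.7 CPM in CTRL against 17.7, 14.4 and 17.7 CPM in ODC, so that all ODC libraries were below all CTRL libraries. The log2 fold change was -0.36 (standard error 0.13, unadjusted p = 0.0243, adjusted p = 0.309, edgeR quasi-likelihood with Benjamini-Hochberg).

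NDUFAF3, on chromosome 3 from 49020459 to 49023495, pointed the other way. It acts with NDUFAF4 on the part of the complex that binds ubiquinone. The CTRL libraries had 27.6, 25.4 and 26.8 CPM and the ODC libraries 32.1, 33.6 and 29.3 CPM, with all ODC libraries above all CTRL libraries. The log2 fold change was 0.25 (standard error 0.11, unadjusted p = 0.0478, adjusted p = 0.403, edgeR). Its unadjusted p was under 0.05 in 8 of 19 alternatives and NDUFAF6's in 16 of 19, and both kept their sign in all 19. Of the exon bases of NDUFAF3, 14.4% are shared with DALRD3 on the opposite strand, and the strand setting of the counting is not given in the sources used here, so its counts are uncertain to that extent.

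At 24 h the values of the groups did not overlap in 5 members, where 17.9% of all genes showed this. In 2 of them ODC was above CTRL (9.42% of all genes) and in 3 below (8.51%). Apart from NDUFB6, NDUFAF6 and NDUFAF3, these were NDUFAF1 and NDUFS6. NDUFS6 is outside the rule for named genes and was chosen after its values were seen. It had 56.1, 58.0 and 54.1 CPM in CTRL and 63.5, 62.7 and 60.8 CPM in ODC (log2 fold change 0.15, standard error 0.085, unadjusted p = 0.109, adjusted p = 0.527, edgeR quasi-likelihood with Benjamini-Hochberg). The antisense RNAs were low: NDUFB2-AS1 had 1.35 to 2.77 CPM and NDUFV2-AS1 0.387 to 0.540 CPM. NDUFA6-AS1 had 1 to 4 counts per library at 24 h and NDUFC2-KCTD14 had 0 in all 11 libraries, so both had too few counts to be tested.

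**Figure D3:**
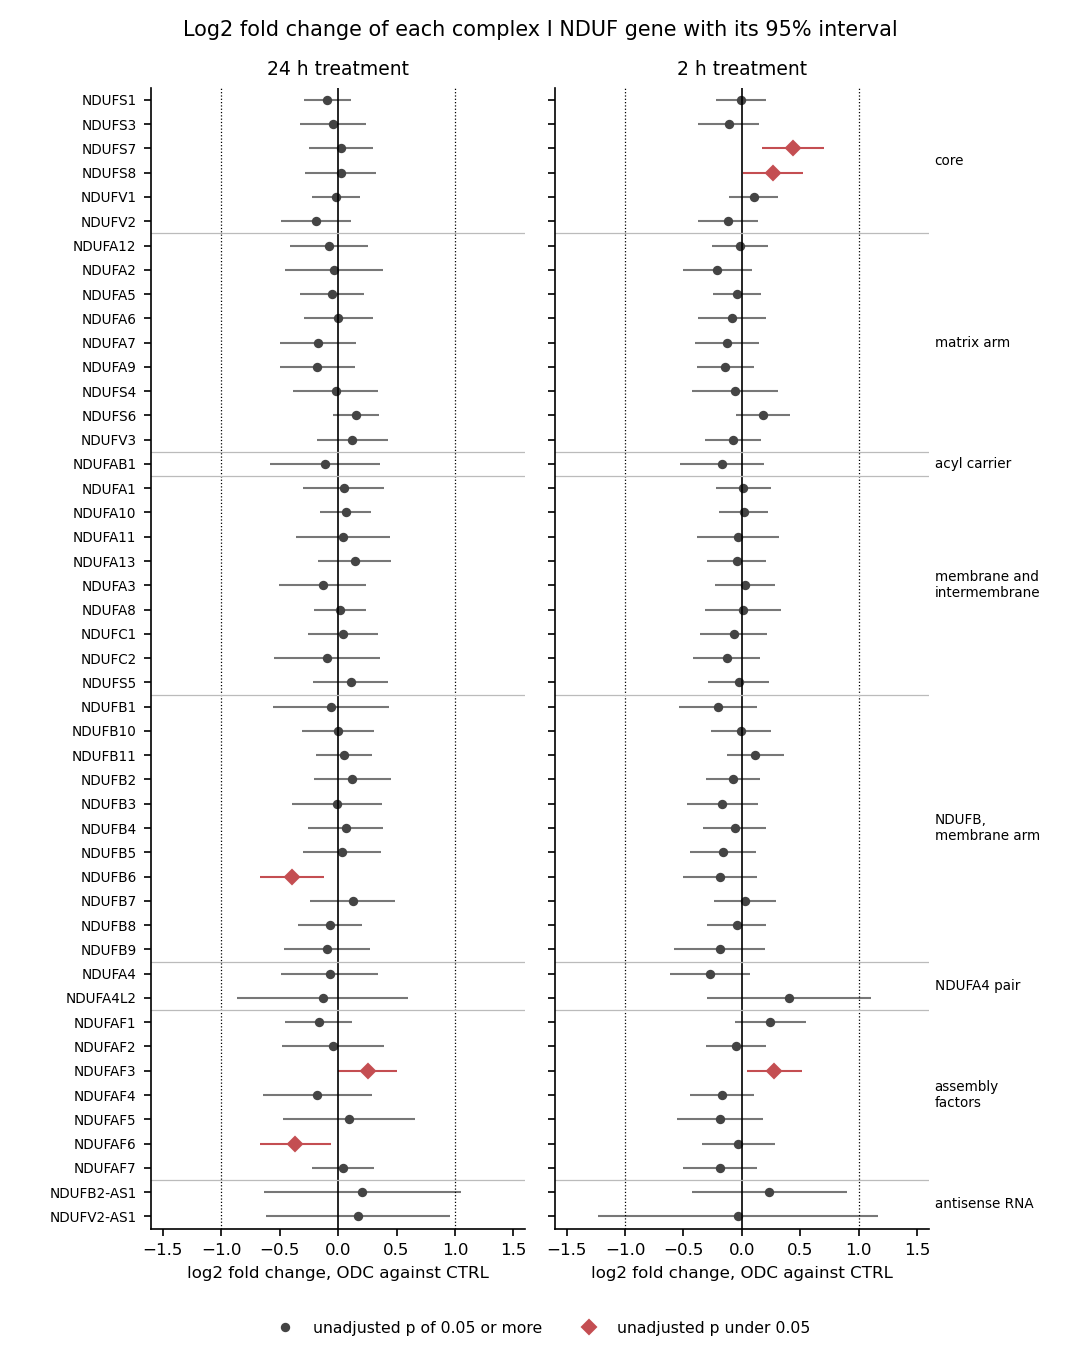
Log2 fold change of ODC against CTRL (points) with its 95% interval (lines) for 47 tested members by role, at 24 h (left) and 2 h (right). Red diamonds mark an unadjusted p under 0.05, which are 3 at each time, dotted lines mark a 2-fold change, and none had an adjusted p under 0.05.

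The second comparison asked for an early response, after 2 h of treatment. Again no member passed the test. Of the 48 members tested, 15 were higher and 33 lower in ODC, with a median log2 fold change of -0.045. Over all genes, 51.8% were lower and the median was -0.0060. The range ran from -0.27 for NDUFA4 to 0.43 for NDUFS7. This split rested on single libraries, since it was 29 higher and 19 lower without CTRL replicate 1 (median 0.042) and 24 of each without ODC replicate 3 (median -0.0059).

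By the quasi-likelihood F-test of edgeR, Benjamini-Hochberg adjusted, 0 members and 0 genes of 13332 (0%) had an adjusted p under 0.05 at 2 h. At an unadjusted p under 0.05 there were 312 genes (2.34%), 1.47% of all genes higher and 0.87% lower, and 3 members, all higher. The likelihood ratio test called 5 genes and DESeq2 called 1, with 0 members in either. In these tests 2 and 3 members had an unadjusted p under 0.05, where all genes gave 303 and 290. Without CTRL replicate 2, 42 genes and 0 members passed, and 5 members and 1201 genes had an unadjusted p under 0.05. With 1 CTRL library left, the spread came from the ODC libraries alone, and the lone library was assumed to vary as they do. The number of members was 1 without ODC replicate 1 and 1 without ODC replicate 3, where all genes gave 300 and 176. Intervals were within 2-fold for 46 members (85.1% of all genes) and within 1.5-fold for 43 (67.5%), and the exceptions at 2-fold were NDUFA4L2 and NDUFV2-AS1.

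The summed level of the members was 3086 and 2728 CPM in CTRL replicates 1 and 2, and 2993, 2827 and 2623 CPM in ODC replicates 1, 2 and 3. The groups overlapped. Of the 48 members, 28 had their highest value in CTRL replicate 1 and 25 their lowest in ODC replicate 3, so that part of the common movement lay between replicates at 2 h as well. The members' median range between replicates, taken as at 24 h, was 0.26 on the log2 scale, and their median absolute log2 fold change was 0.11.

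The 7 core subunits split into 4 higher and 3 lower at 2 h. NDUFS7, on chromosome 19 from 1383527 to 1395589, had the largest log2 fold change and the smallest p of the members. It had 20.8 and 20.5 CPM in CTRL and 30.3, 26.7 and 26.5 CPM in ODC. All ODC libraries were above both CTRL libraries, by more than the range within either group. The fold was 1.35 (95% interval 1.12 to 1.62), and the log2 fold change 0.43 (standard error 0.12, unadjusted p = 0.00550, adjusted p = 1.00, edgeR quasi-likelihood with Benjamini-Hochberg). Leaving out each library in turn gave 0.37 to 0.47, with 0.45 without CTRL replicate 1. An offset for GC content in each library took it to 0.23 with an unadjusted p of 0.0833 (edgeR).

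NDUFS8, which carries a pair of iron-sulfur clusters beside NDUFS7, lies on chromosome 11 from 68030617 to 68036644. It had 61.9 and 52.6 CPM in CTRL and 74.0, 64.4 and 67.9 CPM in ODC, without overlap (log2 fold change 0.27, standard error 0.11, unadjusted p = 0.0444, adjusted p = 1.00, edgeR). It was 0.17 without CTRL replicate 2 and 0.39 without CTRL replicate 1, and its unadjusted p was under 0.05 in 9 of 17 alternatives. Of the other core genes, 4 had overlapping groups, with log2 fold changes of 0.10 (NDUFV1), -0.0079 (NDUFS1), -0.11 (NDUFS3) and -0.12 (NDUFV2).

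Of the accessory subunits, 7 were higher and 23 lower at 2 h, and none had an unadjusted p under 0.05. In the matrix arm, 8 of 9 were lower, with NDUFA2 lowest (-0.21, standard error 0.13) and NDUFS6 the exception. Of the NDUFB subunits, 9 of 11 were lower, with NDUFB1 lowest. NDUFB1 had 16.3 and 15 CPM in CTRL against 14.8, 14 and 11.9 CPM in ODC, and no value overlapped (log2 fold change -0.21, standard error 0.14, unadjusted p = 0.191, adjusted p = 1.00, edgeR quasi-likelihood with Benjamini-Hochberg). NDUFB6 was lower at this time too, but its groups overlapped, with 44 and 35.4 CPM in CTRL and 38.3, 35.2 and 31.3 CPM in ODC (log2 fold change -0.18, standard error 0.14).

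NDUFA4 had 244 and 183 CPM in CTRL and 196, 182 and 153 CPM in ODC. The value depended on the CTRL libraries, since the log2 fold change of -0.27 (standard error 0.15) became -0.049 without CTRL replicate 1 and -0.45 without CTRL replicate 2. NDUFA4L2 had 1.39 and 1.41 CPM in CTRL and 1.84, 1.42 and 2.31 CPM in ODC. The ODC values were all above both CTRL values, the lowest of them only just, and its interval was wide (log2 fold change 0.40, 95% interval -0.30 to 1.11).

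Of the 7 NDUFAF assembly factors, 2 were higher and 5 lower at 2 h. NDUFAF3 was higher again, with 31.7 and 32.0 CPM in CTRL and 38.5, 37.2 and 40.3 CPM in ODC, and no overlap. Its log2 fold change was 0.28 (standard error 0.10, unadjusted p = 0.0260, adjusted p = 1.00, edgeR quasi-likelihood with Benjamini-Hochberg). The unadjusted p was under 0.05 in 13 of 17 alternatives, and without CTRL replicate 1 the log2 fold change was 0.27 (unadjusted p = 0.0808, edgeR). NDUFAF6 had 22.3 and 21.3 CPM in CTRL and 23.5, 22.1 and 18.4 CPM in ODC, which overlapped (log2 fold change -0.031). In all, groups did not overlap in 13 of the 48 members, where 15.3% of all genes showed this. ODC was above CTRL in 7 members (7.89% of all genes) and below in 6 (7.42%). Of the RNAs not tested, NDUFA6-AS1 had 4 and 4 counts in CTRL and 7, 10 and 9 counts in ODC.

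The time points were then compared. Of the 48 members, 10 were higher in ODC at both times, 21 lower at both, 12 higher at 24 h and lower at 2 h, and 5 the reverse. NDUFAF3 was the 1 member with an unadjusted p under 0.05 and the same sign at both times, as were 0.389% of the 12603 genes tested at both. The difference between the effects was tested in a joint fit of the 11 libraries. By the quasi-likelihood F-test of edgeR, Benjamini-Hochberg adjusted, 0 members had an adjusted p under 0.05 for this difference, against 0.015% of 13333 genes. At an unadjusted p under 0.05 there were 2 members (5.93% of all genes), NDUFS7 and NDUFAF1, both lower (2.77% of all genes) and none higher (3.17%). The difference was below 0 for 24 of the 48 (49.6% of all genes), and its 95% interval lay within 2-fold for 45 (70.3%) and within 1.5-fold for 26 (39%). DESeq2 and the likelihood ratio test called 36 and 37 genes and 0 members. At an unadjusted p under 0.05 they gave 2 members each, where all genes gave 790 and 765.

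For NDUFS7, the ODC effect at 24 h was lower than that at 2 h by 0.43 on the log2 scale (standard error 0.16, unadjusted p = 0.0219, adjusted p = 0.713, edgeR quasi-likelihood with Benjamini-Hochberg). For NDUFAF1, a factor of membrane arm assembly on chromosome 15 from 41387218 to 41409403, the difference was also -0.43 (standard error 0.17, unadjusted p = 0.0258, adjusted p = 0.752, edgeR). NDUFAF1 had 13.3, 14.3 and 12.9 CPM in CTRL and 12, 11.6 and 12.5 CPM in ODC at 24 h, all ODC libraries below all CTRL libraries. At 2 h it had 13.1 and 13.0 CPM in CTRL and 16.2, 16.1 and 14.2 CPM in ODC, all ODC libraries above. Neither effect alone had an unadjusted p under 0.05 (log2 fold changes -0.17 and 0.24). The number of members at an unadjusted p under 0.05 for the difference was 0 without ODC replicate 1 of 2 h, where all genes gave 665. It was 1 without ODC replicate 2 of 2 h (662 genes) or CTRL replicate 2 of 24 h (906 genes). It was 3 without ODC replicate 3 of 2 h (701 genes). Without any other 24 h library it was 2, where all genes gave 546 to 1053. Fits that left 1 CTRL library at 2 h are not counted here. For NDUFAF3 the effects at the 2 times differed by -0.043 (95% interval -0.34 to 0.26), and for NDUFB6 by -0.23 (95% interval -0.63 to 0.17).

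**Figure D4:**
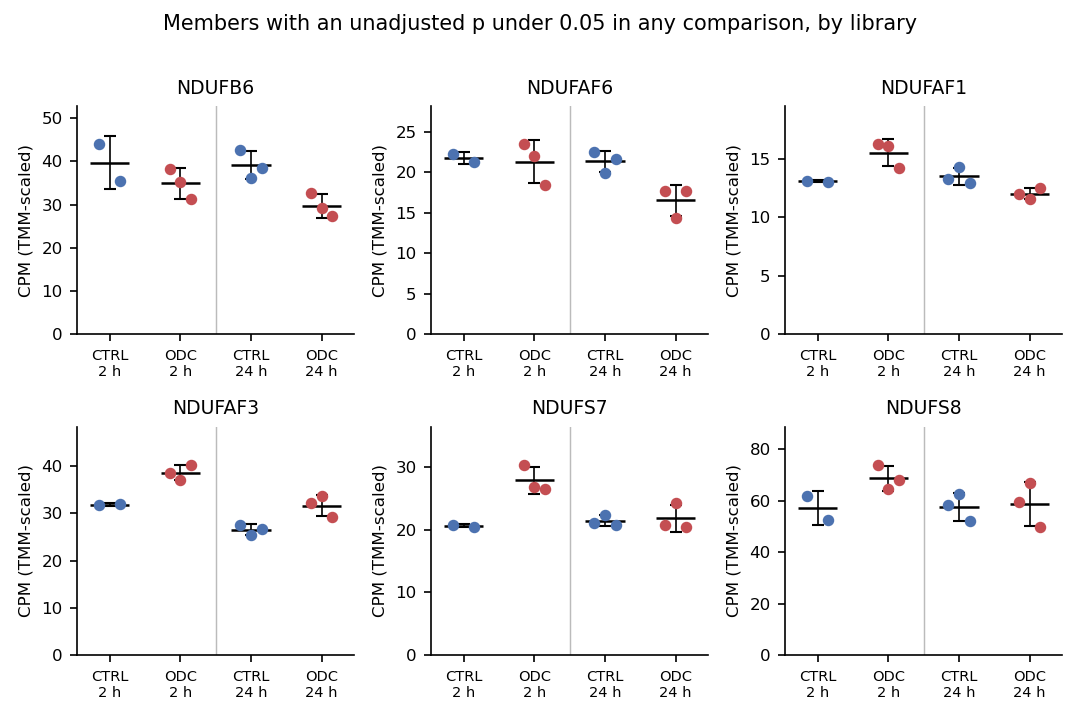
Level (CPM, TMM-scaled, axes from 0) of the 6 members with an unadjusted p under 0.05 in any comparison, by group, with points for libraries, bars for means and whiskers for the SD. NDUFB6 and NDUFAF6 show all ODC points below all CTRL points at 24 h, NDUFS7 and NDUFS8 all ODC points above CTRL at 2 h, NDUFAF3 above at both times, and NDUFAF1 above at 2 h and below at 24 h.

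The members' differences moved with the base composition of their transcripts. The GC content of the 48 canonical transcripts ran from 34.6% to 66.9%, with a median of 48.5%. At 2 h, the log2 fold change rose with GC content across the members (Spearman's rho 0.61, Pearson's r 0.63, n = 48 genes). Across the 38 nuclear genes of complexes II to V that were listed, rho was 0.60, and across all 12975 genes with a GC value it was 0.32. Of the 27 members with a GC content under 50%, 24 were lower and 3 higher. Of the 21 members of at least 50%, 9 were lower and 12 higher. At 24 h, rho was 0.33 over the members, 0.18 over complexes II to V and 0.26 over 12399 genes. Genes within a library share its depth and its composition bias and are not independent, so these values are descriptions.

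Coding sequences of the members at the ends of the range are given as examples. These members were picked by their log2 fold changes, so their sequences are no test of the relation with GC content. The 90 coding bases in the middle of each coding sequence (GENCODE release 44 canonical transcripts, hg38) are given 5′ to 3′ in the sense of the transcript, with every G and C in capitals. NDUFS7, highest at 2 h, lies here at chr19:1390916-1391005 on the plus strand in exon 5. NDUFA4, lowest at 2 h, lies at chr7:10938114-10938863 on the minus strand across exons 2 and 3. NDUFAF3, highest of the coding members at 24 h, lies at chr3:49022500-49022752 on the plus strand across exons 2 and 3, and NDUFB6, lowest at 24 h, at chr9:32570996-32572913 on the minus strand across exons 1 and 2.
NDUFS7: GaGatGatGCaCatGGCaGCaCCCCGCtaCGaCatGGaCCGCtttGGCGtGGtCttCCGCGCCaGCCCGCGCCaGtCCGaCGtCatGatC
NDUFA4: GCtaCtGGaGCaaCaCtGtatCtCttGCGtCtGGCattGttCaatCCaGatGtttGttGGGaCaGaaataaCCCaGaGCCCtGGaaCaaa
NDUFAF3: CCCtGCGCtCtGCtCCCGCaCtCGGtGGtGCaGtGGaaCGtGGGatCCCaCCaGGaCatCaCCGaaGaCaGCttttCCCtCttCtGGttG
NDUFB6: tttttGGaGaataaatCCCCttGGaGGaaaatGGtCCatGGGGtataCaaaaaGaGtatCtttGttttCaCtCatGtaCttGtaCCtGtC
In these stretches G and C make up 64.4% of the bases of NDUFS7, 46.7% of NDUFA4, 61.1% of NDUFAF3 and 37.8% of NDUFB6. Over the whole transcripts the shares were 66.9%, 39.4%, 56.3% and 41.5%. NDUFS7 was the most GC-rich of the members.

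A lowess offset for GC content in each library, chosen after the data were seen, changed the 2 h values. NDUFS7 went from 0.43 to 0.23 (unadjusted p = 0.0833, adjusted p = 1.00, edgeR quasi-likelihood with Benjamini-Hochberg) and NDUFS8 from 0.27 to 0.14 (unadjusted p = 0.247). NDUFAF3 went from 0.28 to 0.25 and was then the 1 member with an unadjusted p under 0.05 (0.0380), while the number over all genes went from 312 to 165. At 24 h, edgeR with the offset left NDUFB6 at -0.35 (unadjusted p = 0.0139) and NDUFAF6 at -0.34 (unadjusted p = 0.0250), and took NDUFAF3 to 0.20 (unadjusted p = 0.0783). The part of base composition in these results was not otherwise tested. In single libraries, set against the CTRL mean of their time, rho between level and GC content over the members ran from 0.42 to 0.65 in the ODC libraries of 2 h, while the pair of CTRL libraries, set against their own mean, mirror each other by construction and give no reference. At 24 h it ran from -0.33 to 0.42 in CTRL and from -0.090 to 0.68 in ODC. The CTRL libraries of 24 h were also set against their own mean, which constrains their values, so the 2 ranges are unlike measures.

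**Figure D5:**
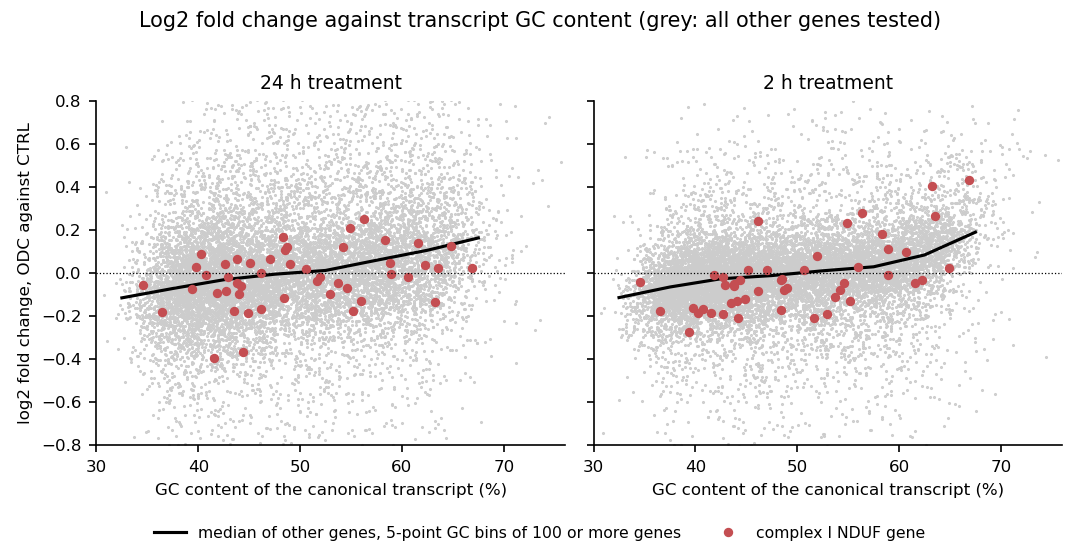
Log2 fold change of ODC against CTRL against the GC content of the canonical transcript (%), at 24 h (left) and 2 h (right), for the members (red) and all other tested genes (grey, with their median in bins of 5 percentage points as a black line). The axis is limited to between -0.8 and 0.8, and the red points rise with GC content more clearly at 2 h (rho 0.61) than at 24 h (rho 0.33).

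Genes around complex I were measured beside the members. Over all genes tested, 49.9% were lower at 24 h and 51.8% at 2 h. The splits of the following lists by direction were not recomputed without single libraries, on which the members' splits depended. Of 13 further assembly factors without an NDUF symbol, 1 was higher and 12 lower at 24 h (median -0.12), and 3 were higher and 10 lower at 2 h (median -0.069). None had an adjusted p under 0.05 at either time by edgeR. Those with the smallest p at 24 h were TMEM70, which acts in the assembly of complexes I and V, at -0.24 (standard error 0.14), NUBPL, an iron-sulfur carrier, at -0.28 (standard error 0.16) and COA1 at -0.21 (standard error 0.14). Of the 13, 0 had an unadjusted p under 0.05 at 24 h, as did 12.2% of all genes. At 2 h the 1 gene with an unadjusted p under 0.05 (2.34% of all genes) was TMEM126B, a partner of NDUFAF1, at -0.39 (standard error 0.15, unadjusted p = 0.0271, adjusted p = 1.00, edgeR).

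The regulators of mitochondrial gene expression gave 6 higher and 10 lower of 16 tested at 24 h, and 11 higher and 7 lower of 18 tested at 2 h. TFB1M and TFAM, factors of mitochondrial ribosome maturation and mitochondrial DNA transcription, had the smallest p at 24 h, with log2 fold changes of -0.36 (standard error 0.17) and -0.35 (standard error 0.18) and adjusted p of 0.455 and 0.495 (edgeR). At 2 h it was PPARGC1B, a coactivator of mitochondrial genes, at -0.45 (standard error 0.18, unadjusted p = 0.0382, adjusted p = 1.00, edgeR). PPARGC1B was the 1 regulator of the 18 with an unadjusted p under 0.05 at 2 h, as were 2.34% of all genes.

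The nuclear genes of complexes II to V were also counted. Of 38 listed, 14 were higher and 24 lower at 24 h (median -0.030), where 49.9% of all genes were lower. At 2 h, 7 were higher and 31 lower (median -0.067), where 51.8% of all genes were lower. How far these splits rest on single libraries was not tested. At 24 h 0 had an unadjusted p under 0.05 (12.2% of all genes) and at 2 h 1 did, which was near the 2.34% of all genes. This was ATP5D (also named ATP5F1D), the delta subunit of ATP synthase, which was higher by 0.40 (standard error 0.11, unadjusted p = 0.0051, adjusted p = 1.00, edgeR). None had an adjusted p under 0.05 at either time. The smallest p of complex V at 24 h belonged to ATP5B, the catalytic beta subunit, with 1063 CPM in CTRL and 955 CPM in ODC (log2 fold change -0.16, standard error 0.098).

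Some counts of the members are uncertain. Exons of 19 members share bases with another gene of the tables, 7 of them with a gene on the same strand and 17 with one on the opposite strand. NDUFC2 shares exons with NDUFC2-KCTD14, and NDUFB2 with NDUFB2-AS1. Of the exon bases of NDUFC2-KCTD14, 51.8% are shared with NDUFC2 and 47.8% with KCTD14, on the same strand. The part of this sharing in its 0 counts was not tested. GENCODE names 63 pseudogenes of 21 members, NDUFA4, NDUFAB1, NDUFB1, NDUFS6 and NDUFV2 among them, and reads that match a copy as well could have been placed on it or dropped.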

How the data were processed

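Gene counts of the 11 libraries were used as deposited, in 1 table for each time point. Per the submitters' processing notes, the authors made the counts with STAR 2.7.0f and HTSeq 0.9.1 on hg38 and analysed them with edgeR 3.26.8. The strand setting of the counting is not given in the sources used here, and a library kit that keeps strand was used. Samples were grouped by their labels, and all value columns belonged to these libraries (0 others). The members and the lists were chosen with earlier results of these data known.

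Each table was filtered with filterByExpr (at least 10 counts, total of 15), scaled by TMM and tested with edgeR 4.0.16 (quasi-likelihood, R 4.3.3) on all genes passing, 12689 at 24 h and 13332 at 2 h, with Benjamini-Hochberg adjustment over all of them. CPM values use the TMM-scaled totals of the genes that passed. The difference between times was an interaction term in a joint fit of both tables. All p are two-sided, intervals are at 95%, and a floor of 3 counts, which covers counting error only, equals 0.144 to 0.169 CPM in the 24 h libraries and 0.0964 to 0.116 in the 2 h libraries. The script was tested on simulated counts.

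Genes were placed with GENCODE release 44 on hg38. Of the 26485 symbols, 23161 matched directly, 1384 by an older symbol and 1940 did not. Levels between genes were taken per kilobase only where the median length of a gene's annotated transcripts was within 1.5-fold of the canonical one. Genes were named by rule: the 7 core subunits, NDUFA4, NDUFA4L2, NDUFAB1, members with an unadjusted p under 0.05 (at most 15 per comparison), the 3 highest and 3 lowest log2 fold changes per time, the highest and lowest levels, members not tested, and at most 3 genes with the smallest p of each other list.

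Alternatives were other filters, scalings (RLE, upper quartile, library totals), quasi-likelihood variants, the likelihood ratio test, DESeq2 1.42.0, the joint fit, leaving out each library, and a block of adjacent library numbers at 24 h. The labels give the groups no shared replicate number. CTRL and ODC libraries 1 and 2, 3 and 4, and 5 and 6 deviated together from their group means, with correlations of 0.27, 0.63 and 0.49 over all genes and 0.49, 0.73 and 0.54 over the members. The block rests on this and not on a stated design. 1 tested member is counted in the totals but not reported here. Figures were drawn with matplotlib 3.10.9.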

Additional observations from a re-analysis of the deposited data

Results flagged for a closer look

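NDUFAF1 drew attention because its 3 ODC libraries were all below its CTRL libraries at 24 h and all above them at 2 h. Over all genes tested, 8.51% showed the first pattern and 7.89% the second. The share of all genes with both was not counted, so how unusual the reversal is remains unknown. The difference between the effects was -0.43 on the log2 scale, with an unadjusted p of 0.0258 and an adjusted p of 0.752 in edgeR. It ran from -0.49 to -0.39 over 21 alternatives, in 15 of which the unadjusted p was under 0.05. Groups of 2 or 3 libraries were too small to be tested for single outlying samples.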

How the results depend on the processing

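No member had an adjusted p under 0.05 in any alternative other than the block of adjacent library numbers at 24 h, which gave 1 (NDUFB6, -0.39, adjusted p = 0.0453, edgeR) and 5 members at an unadjusted p under 0.05 in place of 3. With library totals only, NDUFS7 and NDUFS8 at 24 h turned to -0.0088 and -0.012, and with the GC-content offset, chosen after seeing the data, to -0.14 and -0.10. At 2 h NDUFS1 turned to 0.0041 with every gene of at least 1 count and to 0.024 with the GC-content offset, which left 1 member at an unadjusted p under 0.05. With every gene of at least 1 count the difference between times had 1 such member, where all genes gave 929. Leaving out each library in turn gave 1 to 5 such members at 24 h, where all genes gave 897 to 2006. Apart from fits that left 1 CTRL library at 2 h, it gave 1 to 3 at 2 h, where all genes gave 176 to 352. For the difference it gave 0 to 3, where all genes gave 546 to 1053. In the same way, log2 fold changes at 24 h ran from -0.078 to 0.19 for NDUFA1, -0.18 to 0.15 for NDUFA2, -0.25 to 0.092 for NDUFA4, -0.36 to 0.090 for NDUFA4L2, -0.30 to 0.043 for NDUFAB1, -0.20 to 0.15 for NDUFB1, -0.042 to 0.63 for NDUFB2-AS1, -0.15 to 0.030 for NDUFS3, -0.062 to 0.070 for NDUFS7, -0.085 to 0.13 for NDUFS8 and -0.048 to 0.029 for NDUFV1. For log2 fold changes at 2 h, every library was left out in turn. They ran from -0.055 to 0.10 for NDUFA1, -0.15 to 0.090 for NDUFA13 and -0.11 to 0.066 for NDUFAF6. The ranges were -0.071 to 0.074 for NDUFS1, -0.21 to 0.00094 for NDUFV2 and -0.37 to 0.42 for NDUFV2-AS1. The cause of these changes was not tested. Over single genes, 684 values kept direction and side of the threshold, 37 changed sign and 1 passed the threshold. Low counts left NDUFA6-AS1 and NDUFC2-KCTD14 untested, and the antisense RNAs and NDUFA4L2 rest on at most 70 counts per library. The labels give no shared replicate numbers between the groups, so the pairing comes from the data.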
